A study of Mus musculus with 4 samples.

Results

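The cells described here are the 769 of 2109 accepted cells of the Epi-CE-T library (36.5%, exact binomial 95% interval 34.4 to 38.6) that held at least 3 UMIs (unique molecular identifiers, each standing for 1 captured RNA molecule) of T, at least 1 of Shh, at least 1 of Col2a1 and none of Sox17. Accepted means that the authors' cell table marks the barcode TRUE. The series holds 10579 barcodes in all. The 4 genes of this rule chose the cells, so their levels are given only as a description. The other 1340 accepted Epi-CE-T cells served as the comparison.

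The study measured mouse pluripotent cells on their way to caudal fates with droplet single-cell RNA-seq (10x Chromium), in 4 libraries of 1 sample each, with 8700 cells loaded per library. Epi-CE-T came from epiblast stem cells (EpiSCs) of a Bra:GFP reporter line, in which GFP reports activity of the T gene. They were kept in 12 ng/ml FGF2 and 25 ng/ml Activin A on fibronectin, moved on day 2 to 20 ng/ml FGF2 without Activin A, given 3 µM of the WNT agonist Chiron (CHIR99021) on day 3, and sorted for GFP at 72 h. Epi-CE was made by the same steps without a sort, and Epi-NMP by replating Epi-CE cells for 2 days in 20 ng/ml FGF2 and 3 µM Chiron. ES-NMP came from E14Tg2A embryonic stem cells that went through N2B27 medium before 3 µM CHIR99021, for 72 h in total. Passages 15 to 30 were used, and every library carries the strain label E14Tg2a, so all cells are of cultured lines and none of embryos. Each group is a single library, so there is no test between samples and no p-value, cells of 1 library are not replicates, and every interval below reflects counting error alone.

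The notochord is a rod of mesoderm that forms at the front of the primitive streak from the node and underlies the neural tube. Its cells depend on the T-box factor T (Brachyury) and need the forkhead factor Foxa2 and, towards the tail, the homeobox factor Noto. They secrete the hedgehog ligand Shh and the BMP antagonists chordin and noggin, and wrap themselves in a sheath rich in type II collagen (Col2a1). Sox5, Sox6 and Sox9 act later in building that sheath.

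The 769 cells held 14916490 UMIs, with a median of 18158 per cell (range 8094 to 69949) and 4197 genes. The comparison cells held 30073998 UMIs, with a median of 20128.5 per cell (range 8011 to 88306) and 4346 genes. Mitochondrial genes took 3.02% of UMIs in the 769 cells and 2.49% in the others, and ribosomal protein genes 27.8% and 28.4%. T itself, the gene behind the sort, was at 382 UMIs per 1000000 (CPM) in Epi-CE-T, 431 in the unsorted Epi-CE, 241 in Epi-NMP and 102 in ES-NMP, and 366 (17.4%) of the sorted cells held no T UMI. The sorted library therefore did not have a higher T level than the unsorted library. Of the 769 cells, 8 shared their barcode sequence with a cell of another library, against 114 of all 10579 barcodes. The doublet caller Scrublet marked 12 of the 2201 Epi-CE-T barcodes (0.545%). Of the 148 barcodes with the 5% highest doublet scores, ties included, 50 were among the 769 (6.50%) and 93 among the other accepted cells (6.94%).

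Within the 769 cells, T ranged from 3 to 51 UMIs per cell with a median of 11, Shh from 1 to 18 with a median of 3, and Col2a1 from 1 to 23 with a median of 2. Only 17 cells sat at the T threshold of 3 UMIs, but 174 cells (22.6%) held a single Shh UMI and 231 (30.0%) a single Col2a1 UMI. Summed over cells, T was at 649 CPM against 250 in the other cells, Shh at 178 against 29.5, and Col2a1 at 157 against 18.9. The 17 cells just inside the T threshold and the 18 cells with 2 T UMIs that met the rest of the rule had Slit2 levels of 188 and 157 CPM and Chrd levels of 126 and 119 CPM. Lmx1a was at 105 CPM just inside and 62.9 just outside. When every cell was thinned to 8000 UMIs, 360 cells (17.1%) met the rule, so the size of the set depends on how deeply each cell was read.

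Genes that define the notochord gave a mixed picture. Chrd, which encodes chordin and is the 1 marker given for these cells that the rule did not use, was 1.70-fold higher (95% interval 1.58 to 1.82) than in the other cells, at 98.1 against 57.7 CPM. Noto was at 0.27 CPM, 4 UMIs in all the 769 cells, against 0.23 CPM in the others. Foxa2 was at 32.4 CPM against 35.3, a ratio of 0.92 (0.82 to 1.02). The cells are therefore called here by the rule, as T/Shh/Col2a1 cells: T, Shh and Col2a1 chose them, Noto and Foxa2 were not higher, and against other cells with at least 3 T UMIs the ratio of Chrd was 1.06 (0.99 to 1.15).

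Shares of cells with a UMI gave the same picture at a fixed depth. After thinning every cell to 8000 UMIs, 51.8% of the T/Shh/Col2a1 cells held a Chrd UMI against 35.7% of the others, and 17.4% held a Foxa2 UMI against 20.7%. Noto was seen in 0.13% and 0.30% of cells. The unsorted embryonic stem cell derived library, ES-NMP, shows how often such UMIs were seen in a library in which 0 cells met the rule: of its 3116 accepted cells, 0.674% held a Chrd UMI, 0.963% a Foxa2 UMI and 0.0963% a Noto UMI after the same thinning. Its cells had a median of 22066 UMIs before thinning. The shares for Chrd and Foxa2 thus lay above that level and the share for Noto did not stand clear of it. The level within the sorted library was higher. Of the 366 Epi-CE-T cells without a T UMI, thinned alike, 14.8% held a Chrd UMI and 11.2% (8.16 to 14.9) a Foxa2 UMI. Without thinning, 82.1% of the T/Shh/Col2a1 cells and 53.9% of the other Epi-CE-T cells held a Chrd UMI. For Foxa2 these shares were 32.4% and 33.7%, and for Noto 0.520% and 0.522%.

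**Figure D1:**
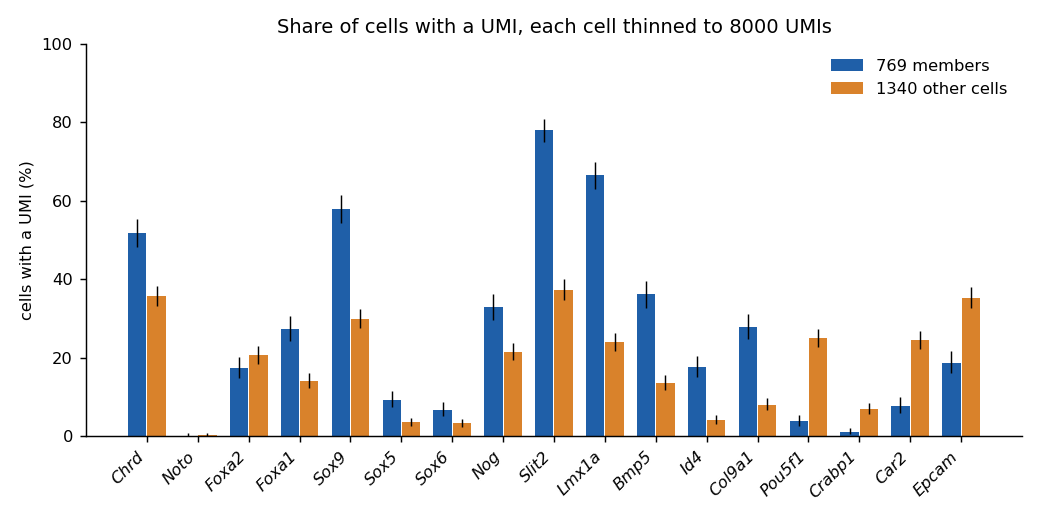
Percentage of cells with at least 1 UMI of each gene after each cell was thinned to 8000 UMIs, for the 769 T/Shh/Col2a1 cells (blue) and the other 1340 Epi-CE-T cells (orange), with bars for exact binomial 95% intervals. Slit2 was seen in 78.0% against 37.3% of cells and Lmx1a in 66.6% against 24.0%, while Foxa2 was seen in 17.4% against 20.7%.

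Of the 13 other notochord and node regulators that had at least 50 UMIs over both groups, 5 were at least 2-fold higher in the T/Shh/Col2a1 cells, 1 was at least 2-fold lower, and the median of the 13 log2 ratios was 0.68. Among all 11865 genes at that minimum, 2.46% were at least 2-fold higher and 3.57% at least 2-fold lower, and the median log2 ratio was 0.02. The list was chosen with earlier results of these data known, so its count is a description and not independent support for a cell type. Lmx1a is counted again in the floor plate and neural tube list, and Foxa1 in the endoderm list. Lmx1a, a LIM-homeobox factor known from the roof plate and from midbrain dopamine neurons, was highest of the 5 at 135 against 33.5 CPM (4.02-fold, 3.73 to 4.34). Sox5 was 3.61-fold (2.83 to 4.63), Sox6 2.96-fold (2.31 to 3.81), Foxa1 2.82-fold (2.51 to 3.18) and Sox9 2.30-fold (2.16 to 2.46) higher. All 3 of these SOX factors are needed for cartilage and notochord matrix, and Foxa1 is the close relative of Foxa2. Nodal, the left-right and mesendoderm signal made around the node, was the 1 gene that was lower, at 2.41 against 6.48 CPM (2.69-fold lower, 1.88 to 3.95). The node cilia factor Foxj1 was at 6.23 against 7.75 CPM (ratio 0.80, 0.63 to 1.03). Mnx1, a homeobox factor of notochord and motor neurons, was at 29.8 against 18.4 CPM.

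Cell by cell the regulators were sparse. Lmx1a ranged from 0 to 584 CPM over the 769 cells with a median of 131, and its median over the other cells was 0. Sox9 ranged from 0 to 859 CPM with a median of 100.1, Foxa1 from 0 to 303 with a median of 31.0, and Chrd from 0 to 643 with a median of 85.9. Sox5, Sox6 and Foxa2 had a median of 0 in the T/Shh/Col2a1 cells, with highest values of 207, 179 and 521 CPM. The ranges of the T/Shh/Col2a1 cells and the others overlapped for every one of these genes. Of 9 markers outside the rule, a thinned T/Shh/Col2a1 cell held a UMI of 4 in the median (0 to 7) and another cell of 3 (0 to 8), and 41.0% against 24.8% of cells held at least 5. The 9 were Chrd, Noto, Foxa2, Nog, Sox9, Foxj1 and the keratins Krt8, Krt18 and Krt19, so the count is not of regulators alone. In thinned cells Krt8 was at 391 against 233 CPM, and Foxa2 at 29.1 against 39.0.

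The secreted signals split in a similar way. Besides Shh, 9 ligand and antagonist genes could be measured: 2 lay at least 2-fold above the other cells, 0 at least 2-fold below, and the median log2 ratio was -0.06. The shares over all 11865 genes were 2.46% and 3.57%. Slit2, an axon and cell guidance ligand of the ventral midline, was at 190 against 63.5 CPM (2.99-fold, 2.82 to 3.17), with a median per cell of 173 CPM (0 to 1113). Nog, which encodes the BMP antagonist noggin, was at 63.4 against 31.6 CPM (2.01-fold, 1.83 to 2.20). That ratio sits on the 2-fold line and fell below it under 11 of 12 other ways of counting, down to 1.14. Fst (follistatin) was at 33.7 against 49.1 CPM, Slit3 at 32.3 against 34.0 and the WNT antagonist Dkk1 at 24.7 against 26.8, so the higher levels of Slit2 and Nog were not shared by the list.

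The sheath was represented by few genes. Besides Col2a1, 20 matrix genes were measured, of which 1 was at least 2-fold higher and 1 at least 2-fold lower (median log2 ratio 0.01). With 2.46% of all 11865 genes higher and 3.57% lower, these counts are not read as a result about the list. Col9a1, a chain of the type IX collagen that decorates type II collagen fibrils, was at 45.7 against 10.3 CPM (4.44-fold, 3.87 to 5.09), and Bgn, the proteoglycan biglycan, at 6.44 against 16.1 CPM (2.50-fold lower, 2.01 to 3.15). Lamb1, a laminin chain of basement membranes, was 1.90-fold higher (1.74 to 2.07) and Col11a1, of the type XI collagen that co-assembles with type II, 1.86-fold higher (1.36 to 2.54). The fibronectin gene Fn1 was at 59.3 against 52.9 CPM, and the cartilage proteoglycan genes Acan and Hapln1 did not reach 50 UMIs.

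Among 14 measured genes of the cytoskeleton and surface list, which is not of notochord genes alone, 0 lay at least 2-fold above the other cells and 4 at least 2-fold below. Over all 11865 genes these shares were 2.46% and 3.57%. The keratins of simple epithelia stood at 1.73-fold for Krt8 (1.67 to 1.79), 1.42-fold for Krt18 and 1.29-fold for Krt19. Cdh2, the neural and mesodermal cadherin, was 1.63-fold higher (1.52 to 1.75). The 4 lower genes were Cdh1, the epithelial cadherin (4.29-fold lower), Epcam, an epithelial adhesion molecule (2.51-fold lower, 2.30 to 2.75), the tight junction gene Cldn7 (6.23-fold lower) and the calcium-binding S100a6 (6.21-fold lower, 5.40 to 7.18). Cdh1 and Cldn7 rested on 14 and 9 UMIs in the T/Shh/Col2a1 cells.

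Over all 9440 genes with at least 200 UMIs, leaving out the rule genes, 161 were at least 2-fold higher in the T/Shh/Col2a1 cells (1.71%) and 151 at least 2-fold lower (1.6%). The 15 highest among genes with at least 50 CPM in the higher group were, from the top, Tgm2, Lmx1a, Stk26, Hsd17b7, Samd3, Limch1, Spp1, Alcam, Bmp5, Pdgfc, Slit2, Cobl, Cdkn1c, Psmb8 and Rnd3. Tgm2, a transglutaminase that cross-links matrix proteins, was at 93.3 against 22.8 CPM (4.09-fold, 3.73 to 4.48). Alcam, a cell adhesion molecule, was at 181 against 54.7 CPM (3.31-fold, 3.12 to 3.52), and Cobl, an actin nucleator, at 59.2 against 20.2 CPM (2.93-fold, 2.64 to 3.26). Samd3, a gene with a SAM domain, was at 299 against 84.2 CPM (3.56-fold, 3.39 to 3.73) and was seen in 84.8% of thinned T/Shh/Col2a1 cells against 39.2% of the others. Stk26 is a protein kinase, Rnd3 a small GTP-binding protein that loosens actin stress fibres, Pdgfc a growth factor and Hsd17b7 an enzyme of cholesterol synthesis, and they were 4.02-, 2.68-, 3.17- and 3.56-fold higher.

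The levels of 2 of the 15 were uneven between cells. Spp1 (osteopontin) was at 141 against 42.3 CPM, but its median per T/Shh/Col2a1 cell was 0, its highest 8852 CPM, and 1 cell held 6.0% of its UMIs. Cdkn1c, which encodes the cell cycle inhibitor p57, was at 994 against 352 CPM (2.83-fold, 2.76 to 2.90). Its median per cell was 86.6 CPM in the T/Shh/Col2a1 cells and 57.6 in the others, and its highest 17799. After thinning, 52.5% of T/Shh/Col2a1 cells and 45.1% of the others held a Cdkn1c UMI, so that share differed less between the groups than the CPM did. Pomc, the gene for the precursor of melanocortin hormones, fell outside the 15 and was picked after its values were seen: it was at 2199 against 971 CPM (2.27-fold, 2.23 to 2.30), and at 2385 CPM in cells with Shh alone, 2613 with Col2a1 alone and 23.1 without T.

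RefSeq promoter windows on GRCm38.p6 (the mm10 build) were matched for 13 of the 15 genes by symbol, and those of 5 genes that are high in these cells are shown because they hold a forkhead or T-box word or, for Lmx1a and Slit2, none. Each window is the 250 bases before the annotated start, 5′ to 3′ on the gene's strand, and capitals mark a match to a searched word.
Foxa1 (chr12:57546112-57546361, minus strand): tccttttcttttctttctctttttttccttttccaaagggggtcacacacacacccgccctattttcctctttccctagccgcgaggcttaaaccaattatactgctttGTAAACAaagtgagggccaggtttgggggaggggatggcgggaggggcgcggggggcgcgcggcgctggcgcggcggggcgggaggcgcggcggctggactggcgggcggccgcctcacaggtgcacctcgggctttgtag
Limch1 (chr5:66857219-66857468, plus strand): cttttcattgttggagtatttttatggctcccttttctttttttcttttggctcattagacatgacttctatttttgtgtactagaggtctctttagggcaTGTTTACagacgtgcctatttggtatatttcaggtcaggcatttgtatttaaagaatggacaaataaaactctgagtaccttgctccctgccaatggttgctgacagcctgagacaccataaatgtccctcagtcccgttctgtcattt
Samd3 (chr10:26229457-26229706, plus strand): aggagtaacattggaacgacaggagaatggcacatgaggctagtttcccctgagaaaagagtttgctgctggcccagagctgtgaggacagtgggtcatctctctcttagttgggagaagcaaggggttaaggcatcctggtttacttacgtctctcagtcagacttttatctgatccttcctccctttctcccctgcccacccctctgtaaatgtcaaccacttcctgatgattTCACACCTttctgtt
Lmx1a (chr1:167689308-167689557, plus strand): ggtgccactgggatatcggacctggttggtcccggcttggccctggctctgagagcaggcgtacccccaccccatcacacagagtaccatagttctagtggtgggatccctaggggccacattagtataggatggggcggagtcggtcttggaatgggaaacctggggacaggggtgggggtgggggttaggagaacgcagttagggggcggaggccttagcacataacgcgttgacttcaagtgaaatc
Slit2 (chr5:47982905-47983154, plus strand): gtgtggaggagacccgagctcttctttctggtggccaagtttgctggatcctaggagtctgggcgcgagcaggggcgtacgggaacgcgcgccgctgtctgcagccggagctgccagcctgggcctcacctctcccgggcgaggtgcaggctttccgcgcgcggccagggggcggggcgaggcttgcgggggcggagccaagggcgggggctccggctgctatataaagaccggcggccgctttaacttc
The words searched on both strands were TGTTTAC (forkhead), AGGTGTGA (T-box), TGGGTGGTC (GLI) and ACAATGG (SOX), and none of them overlaps another in these windows. Foxa1 holds the forkhead word on the minus strand of the gene, 141 to 135 bases before its start, Limch1 holds it on the plus strand at 149 to 143 bases before 1 of its 3 listed starts, and Samd3 holds the T-box word on the minus strand at 15 to 8 bases. Over all 32851 promoter windows of this length, 3.17% held the forkhead word, 1.12% the T-box word, 0.225% the GLI word and 3.02% the SOX word. Among the 17 windows of the 13 matched high genes, 1 held the forkhead word, 1 the T-box word and 0 the GLI or the SOX word. A match describes letters and not binding. In the GENCODE M21 annotation of mm10, Samd3 is the protein-coding gene at chr10:26229707-26272172, Foxa1 at chr12:57540628-57546916, Limch1 at chr5:66745827-67057158, Lmx1a at chr1:167689237-167848741 and Slit2 at chr5:47983138-48307733. The Samd3 window ends at the base before that gene and the Slit2 window at its start, while the Foxa1, Limch1 and Lmx1a windows lie inside the gene as GENCODE annotates it.

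The 10 lowest genes were Car2, Crabp1, Igfbp3, Stmn2, Pou5f1, Fgfbp3, S100a6, Akap12, Lefty1 and Rbpms2. Car2, a carbonic anhydrase, was at 13.9 CPM against 168 (12.1-fold lower, 10.5 to 14.0), and Stmn2, a microtubule regulator known from neurons, at 25.5 against 229.97 (9.0-fold lower, 8.12 to 9.99). The pluripotency gene Pou5f1 had 10.7 CPM in the T/Shh/Col2a1 cells and 91.5 in the others, 8.58-fold lower (7.31 to 10.1). Igfbp3 was 10.5-fold lower (8.33 to 13.4). Crabp1, a retinoic acid binding protein, was at 5.03 against 60.4 CPM, and 1 cell held 65.3% of its UMIs in the T/Shh/Col2a1 cells. These genes were near absent from most T/Shh/Col2a1 cells: a thinned cell held a Pou5f1 UMI in 3.90% of cases against 25.0%, a Car2 UMI in 7.80% against 24.6% and a Crabp1 UMI in 1.17% against 6.87%.

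The comparison cells were themselves mixed. The 1340 cells hold 292 with at least 3 T UMIs and Shh but no Col2a1, 176 with Col2a1 but no Shh, 273 with neither, 21 with 1 or 2 T UMIs and both genes, 202 with 1 or 2 T UMIs without both, 359 with no T UMI, and 17 with a Sox17 UMI. Median depth over these sets ran from 16177 to 24900 UMIs and was highest in the cells with no T UMI. Lmx1a stood at 135 CPM in the T/Shh/Col2a1 cells, 92.6 in the Shh-only set, 74.9 in the Col2a1-only set, 24.9 in the set with neither and 3.06 in cells without T. Slit2 stood at 190, 142, 138, 69.0 and 8.02 CPM in the same order. The cells that missed 1 of the 2 low-count genes were therefore closer to the T/Shh/Col2a1 cells than to the cells without T for both genes.

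Chrd did not follow that order: it was at 98.1 CPM in the T/Shh/Col2a1 cells, 104 in the Shh-only set, 102 in the Col2a1-only set, 78.1 with neither and 16.4 without T. Foxa2 was highest in the Shh-only set, at 61.2 CPM (54.9 to 68.0), and was at 32.4 CPM in the T/Shh/Col2a1 cells (29.6 to 35.4), 26.7 in the Col2a1-only set and 49.9 with neither. These intervals for the T/Shh/Col2a1 cells and the Shh-only set do not overlap. Pou5f1 was higher at each step through the same sets, at 10.7, 21.2, 31.7, 80.6 and 142 CPM. In cells without a T UMI, thinned alike, 3.28% held an Lmx1a UMI, 6.28% a Slit2 UMI and 14.8% a Chrd UMI, with a median depth of 24898 UMIs.

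**Figure D2:**
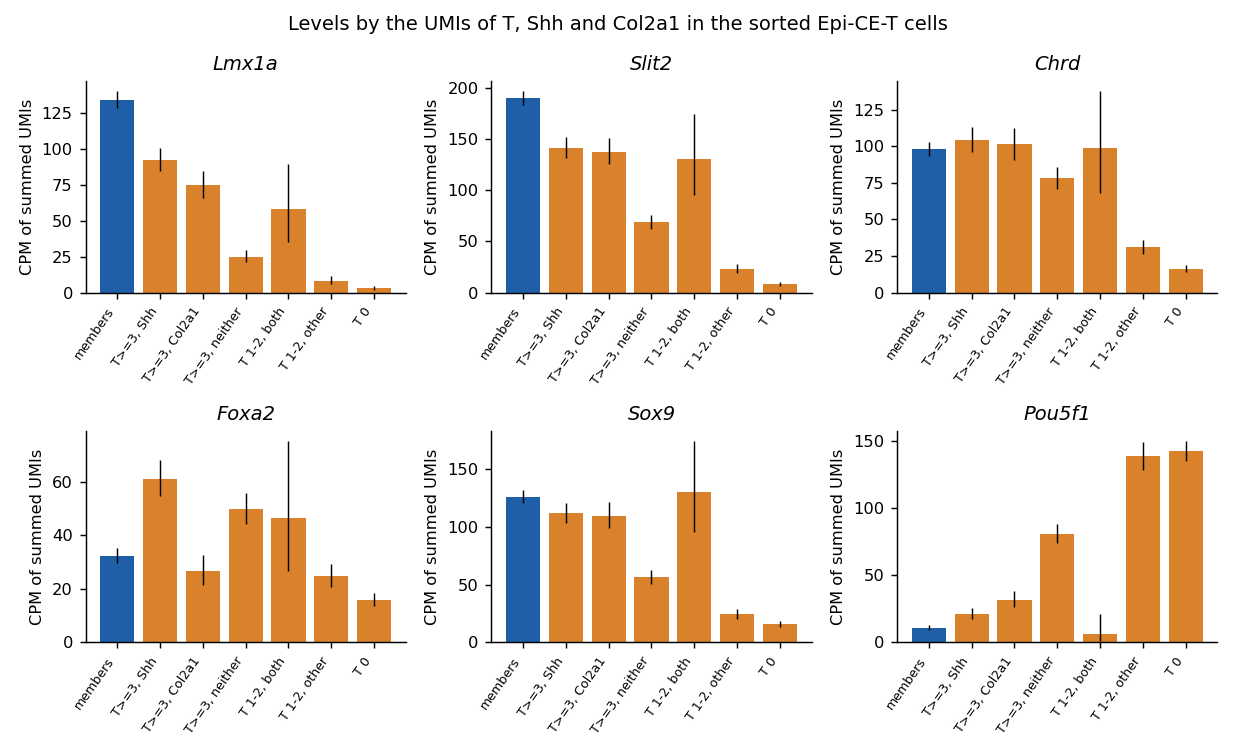
CPM of summed UMIs for 6 genes in the sets of Epi-CE-T cells defined by their T, Shh and Col2a1 UMIs (all without Sox17), with exact Poisson 95% intervals; the T/Shh/Col2a1 cells are blue and labelled members. Lmx1a and Slit2 are highest in the T/Shh/Col2a1 cells, Chrd is level across the sets with at least 3 T UMIs and 1 of the other genes, and Foxa2 is highest in the Shh-only set at 61.2 CPM.

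Against only the 750 other cells with at least 3 T UMIs, 36 of 8530 genes were at least 2-fold higher (0.422%) and 46 at least 2-fold lower (0.539%). Of the genes named above, Tgm2 (2.48-fold), Hsd17b7 (2.40-fold), Stk26 (2.30-fold), Rnd3 (2.25-fold), Spp1 (2.24-fold), Lmx1a (2.20-fold), Cdkn1c (2.18-fold), Limch1 (2.02-fold), Col9a1 (2.61-fold), Sox5 (2.22-fold) and Sox6 (2.03-fold) remained at least 2-fold higher. Samd3 and Pdgfc (each 1.95-fold), Alcam (1.92-fold), Bmp5 (1.87-fold), Cobl (1.73-fold), Slit2 (1.70-fold), Foxa1 (1.64-fold), Psmb8 (1.56-fold), Sox9 (1.42-fold) and Nog (1.14-fold) did not. The ratio of Chrd went to 1.06 (0.99 to 1.15) and that of Foxa2 to 0.65 (0.58 to 0.73). Among the low genes Igfbp3 (11.2-fold lower), Car2 (10.7-fold), Stmn2 (5.42-fold), S100a6 (5.25-fold), Pou5f1 (4.39-fold), Lefty1 (3.67-fold), Akap12 (2.29-fold) and Epcam (2.01-fold) kept the call, Rbpms2 (1.79-fold) and Fgfbp3 (1.62-fold) lost it, and Crabp1 turned to 1.64-fold higher (1.12 to 2.42), with 65.3% of its UMIs in 1 cell.

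A similar shift came from leaving out the comparison cells with a Crabp1 or Pou5f1 UMI, a choice made after the data were seen, which left 778 cells. The filter was not applied to the T/Shh/Col2a1 cells, all 769 of which were kept. Genes found with Crabp1 or Pou5f1 therefore lost UMIs on the comparison side only, which by itself moves their ratios up. Then 33 of 8470 genes were at least 2-fold higher (0.39%) and 32 at least 2-fold lower (0.378%). Hsd17b7 (2.56-fold), Tgm2 (2.31-fold), Lmx1a (2.20-fold), Stk26 (2.18-fold), Limch1 (2.07-fold), Samd3 (2.01-fold), Col9a1 (2.41-fold) and Id4 (2.90-fold) remained at least 2-fold higher. Cdkn1c came to 1.98-fold, Spp1 and Rnd3 to 1.94-fold, Sox5 to 1.89-fold, Alcam to 1.86-fold, Pdgfc to 1.83-fold, Bmp5 to 1.82-fold, Sox6 to 1.80-fold, Psmb8 to 1.78-fold, Slit2 to 1.77-fold, Cobl to 1.76-fold, Foxa1 to 1.60-fold and Sox9 to 1.45-fold. Car2 came to 1.78-fold lower, Akap12 to 1.87-fold, Epcam to 1.49-fold and Rbpms2 to 1.39-fold, and Lefty1 turned to 1.18-fold higher. Stmn2 (3.72-fold), Igfbp3 (3.04-fold), S100a6 (3.02-fold) and Fgfbp3 (2.64-fold) were still at least 2-fold lower.

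**Figure D3:**
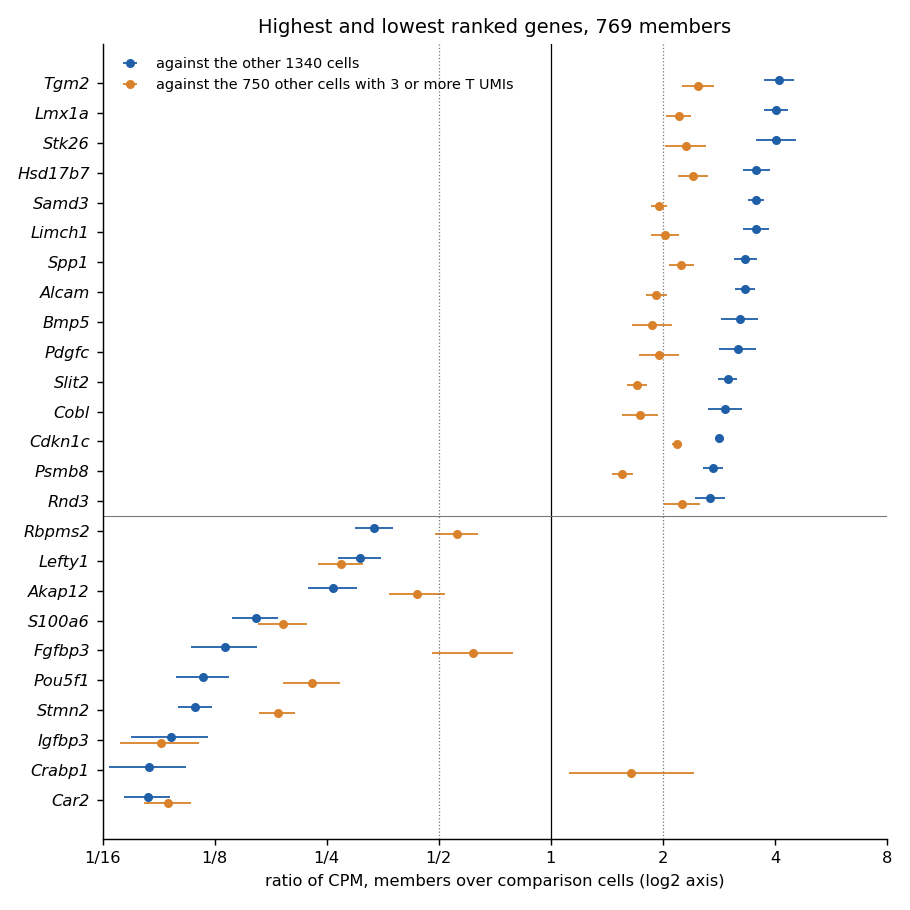
Ratio of CPM in the 769 T/Shh/Col2a1 cells (labelled members) to the other 1340 cells (blue) and to the 750 of these with at least 3 T UMIs (orange), on a log2 axis, for the 15 highest and 10 lowest genes, with 95% counting intervals; dotted lines mark 2-fold. Tgm2 goes from 4.09 to 2.48, Slit2 from 2.99 to 1.70, and Crabp1 is the 1 gene that crosses 1.

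The counts in the pathway and cell type lists that follow stand beside 2.46% of all 11865 genes at least 2-fold higher and 3.57% at least 2-fold lower. A count of 1 in lists of this size is not read as a result about the list. In the hedgehog list, 10 genes besides Shh were measured, with 0 at least 2-fold higher, 1 at least 2-fold lower and a median log2 ratio of 0.24. Ptch1, the Shh receptor and a target that is transcribed when the pathway is active, was at 62.9 against 50.5 CPM (1.24-fold, 1.15 to 1.35), and Gli1, another such target, at 7.44 against 5.25 CPM (1.42-fold, 1.10 to 1.82). The co-receptor gene Cdon was 1.64-fold higher (1.39 to 1.94) and Smo, the signal transducer, was at 41.1 against 40.7 CPM. Gli2, on 12 UMIs, was 2.52-fold lower (1.34 to 5.14). Against the other cells with at least 3 T UMIs the ratio of Ptch1 was 0.99 (0.91 to 1.09).

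In the BMP list 3 of 16 were at least 2-fold higher, Id4 (4.29-fold, 3.57 to 5.16), Bmp5 (3.21-fold, 2.86 to 3.61) and Nog, and 1 at least 2-fold lower, Id2 (5.90-fold lower, 4.63 to 7.61). Id2 and Id4 both encode inhibitors of bHLH factors, and the related Id1 and Id3 were at 0.79 and 1.07 times the other cells' level. Bmp7, the ligand gene known from the notochord, was at 124 against 79.1 CPM. In the Nodal list 0 of 9 were at least 2-fold higher and 4 at least 2-fold lower, which were Nodal, its co-receptor gene Tdgf1, Gdf3 and its antagonist gene Lefty1 (3.25-fold lower, 2.85 to 3.73). Tdgf1 and Gdf3 rested on 7 and 3 UMIs in the T/Shh/Col2a1 cells. Without comparison cells holding a Crabp1 or Pou5f1 UMI, Nodal came to 1.89-fold and Tdgf1 to 1.65-fold lower, and Gdf3 and Lefty1 turned to log2 ratios of 1.52 and 0.23.

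In the FGF and WNT lists more genes were at least 2-fold lower than higher. Of 12 FGF genes, 0 were at least 2-fold higher and 4 lower (median log2 ratio -0.43), all of them ligand genes: Fgf5, Fgf8, Fgf15 and Fgf17. Fgf8 was at 0.40 against 6.82 CPM (16.9-fold lower, 7.65 to 46.7) and Fgf15 at 0.20 against 12.8 CPM, on 3 UMIs. Of the feedback targets, Dusp6 was at 48.8 against 50.8 CPM and Etv4 at 47.2 against 34.1 (1.38-fold, 1.25 to 1.52). Of 17 WNT genes, 1 was at least 2-fold higher, Lgr5 (3.22-fold, 2.15 to 4.85), and 4 at least 2-fold lower, Wnt3, Wnt8a, Sfrp1 and the transcription factor gene Lef1 (7.67-fold lower, 5.36 to 11.3). Wnt8a, a ligand of the streak, was 18.9-fold lower (11.9 to 32.1), 4.54-fold lower against other cells with at least 3 T UMIs and 1.05-fold lower without comparison cells holding a Crabp1 or Pou5f1 UMI. The ligand gene Wnt5b was 1.64-fold higher (1.28 to 2.10), and the target genes Axin2 and Sp5 were at 0.80 and 1.51 times the other cells' level.

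In the Notch list 0 of 12 were at least 2-fold higher and 5 lower, among them Dll1 and Hes5, with 2 and 1 UMIs in the T/Shh/Col2a1 cells. Dll3 was at 107 against 109 CPM and Hes1 at 141 against 143. The planar polarity genes, which orient cells during axial elongation, had 1 of 12 at least 2-fold higher, Prickle2 (2.77-fold, 2.10 to 3.67), and 0 lower, and the log2 ratios had a median of 0.43. Prickle2 lost that call with at least 2 UMIs of Shh and of Col2a1 (1.92-fold), in thinned cells (1.82-fold), against other cells with at least 3 T UMIs (1.72-fold) and without comparison cells holding a Crabp1 or Pou5f1 UMI (1.71-fold). The ciliary genes had 0 of 13 higher and 2 lower, with a median of 0.13, where 2.46% of all 11865 genes were higher and 3.57% lower. In the Hox list 1 of 9 was at least 2-fold higher, Hoxd4 (2.66-fold, 1.82 to 3.92, but 1.75-fold without comparison cells holding a Crabp1 or Pou5f1 UMI), and 3 lower.

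In the lists of pluripotent, caudal epiblast and paraxial mesoderm cells, the genes that passed 2-fold were lower. Of 12 pluripotency genes, 0 were at least 2-fold higher and 8 lower (median log2 ratio -1.98), with the summed level of the list at 143.7 CPM against 293.6. Of 10 caudal epiblast and neuromesodermal progenitor genes, 0 were higher and 6 lower (median -2.42), and Nkx1-2, a defining factor of that state, was at 1.41 against 18.2 CPM. Nkx1-2 was at 12.6 CPM over all Epi-CE-T cells against 182 in Epi-CE, and Cdx2 at 4.67 against 122. Of 9 paraxial mesoderm genes, 0 were higher and 5 lower (median -1.21), with summed levels of 226.3 against 228.0 CPM, and Msgn1 and Foxc2 had no UMI in the T/Shh/Col2a1 cells. Their part in the differences above, through the make-up of the comparison cells, was not tested beyond the alternatives given.

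Endoderm is another fate that shares Foxa1 and Foxa2. Of 8 measured endoderm genes, 1 was at least 2-fold higher, Foxa1 itself, and 1 at least 2-fold lower, Trh (3.06-fold lower, 2.52 to 3.75). The list summed to 102.3 CPM in the T/Shh/Col2a1 cells and 86.9 in the others, of which Foxa1 made 44.5 and 15.8. The endoderm genes Hnf4a, Afp and Cldn8 had no UMI in the T/Shh/Col2a1 cells, Gata4 was at 0.13 CPM, and Sox17 was at 0 by the rule. In the floor plate and neural tube list 2 of 12 were at least 2-fold higher, Lmx1a and Lmx1b (2.65-fold, 1.67 to 4.24, but 1.57-fold without comparison cells holding a Crabp1 or Pou5f1 UMI), and 5 lower, and the floor plate gene Nkx2-2 stood at 0.20 CPM. No other measured gene of that list was at least 2-fold higher. Smooth muscle genes had 0 of 7 higher and 3 lower, with Acta2 at 0.13 against 4.36 CPM. Primitive streak genes had 1 of 9 higher, the apelin receptor gene Aplnr (2.57-fold, 2.36 to 2.81, but 1.46-fold against other cells with at least 3 T UMIs), and 3 lower. The lateral mesoderm, blood and endothelium list had 1 measured gene, Bmp4, at 23.1 against 25.5 CPM, and the surface ectoderm list 1, Tfap2c, which was 10.2-fold lower on 6 UMIs and 1.57-fold lower without those comparison cells. Genes of mesenchymal transition had 0 of 12 higher and 3 lower, and immediate early genes, which respond to dissociation, 0 of 12 higher and 1 lower, Atf3.

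No S or G2 and M phase gene of the lists passed 2-fold, but the S phase list was low. Of 20 S phase genes 0 passed 2-fold in either direction, with a median log2 ratio of -0.53 and a summed level of 1230.2 against 1717 CPM, where the median over all genes was 0.02. Of 20 G2 and M phase genes 0 passed, with a median of -0.13. Of 11 cell cycle inhibitor and D cyclin genes, Cdkn1c was higher and Cdkn2b (2.81-fold, on 12 UMIs) was lower. Cdkn1a, the gene for the inhibitor p21, was 1.44-fold higher (1.41 to 1.47). In the main comparison 0 of 20 genes of glycolysis and hypoxia passed 2-fold, and the glucose transporter gene Slc2a3 was lowest at 234 against 466 CPM. Slc2a3 sat on the 2-fold line. It was 2.03-fold lower with TMM factors, 2.00-fold with at least 5 T UMIs and 2.04-fold with at least 2 UMIs of Shh and of Col2a1. In thinned cells it was 1.97-fold lower and by mean CPM per cell 1.90-fold.

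The T/Shh/Col2a1 cells were also compared among themselves. They were split by their T level in CPM into 3 sets, low, middle and high, of 257, 256 and 256 cells, whose median depth fell from 19548 to 18807.5 and 15558.5 UMIs. Cdkn1c stood at 607.5 CPM in the low set, 878 in the middle and 1616 in the high set. Chrd went from 82.2 to 99.4 and 117 CPM, Slit2 from 156 to 201 and 220, and Sox9 from 104 to 126 and 154. The levels of these 4 genes were higher in the high than in the low set, while Foxa2 stood at 37.2, 27.5 and 31.7 CPM and Nog at 60.4, 67.9 and 62.1.

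Genes of the S, G2 and M phases were lower in the high set. The summed G2 and M phase genes fell from 3731 to 2970 and 2117 CPM and the S phase genes from 1443 to 1240 and 949 CPM, and Top2a, the mitotic topoisomerase, was 1.87-fold lower in the high than in the low set (1.73 to 2.02). The D cyclin gene Ccnd1 was at 63.1, 84.0 and 84.7 CPM, 1.34-fold higher in the high than in the low set (1.16 to 1.56). Epcam was 2.51-fold lower (1.99 to 3.18), at 22.4 against 56.1 CPM. Car3, another carbonic anhydrase, was 3.17-fold higher (2.82 to 3.57), at 228 against 71.8 CPM, and Spp1 2.44-fold higher. Depth fell from the low to the high set, and a given number of T UMIs is a higher CPM in a shallower cell. Neither the source of that fall in depth nor its part in these differences was tested. Across the 769 cells, whose values share 1 library and the cell's own depth, the Pearson correlation of T was 0.25 with Cdkn1c (Spearman 0.18), 0.15 with Slit2 and Lmx1a (Spearman 0.18 and 0.13), 0.13 with Sox9 (Spearman 0.10), 0.06 with Chrd (Spearman 0.07) and -0.18 with Top2a (Spearman -0.21), all weak. For Car3 and Spp1, despite their folds between the sets, it was 0.13 and 0.05 (Spearman 0.07 and 0.02).

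**Figure D4:**
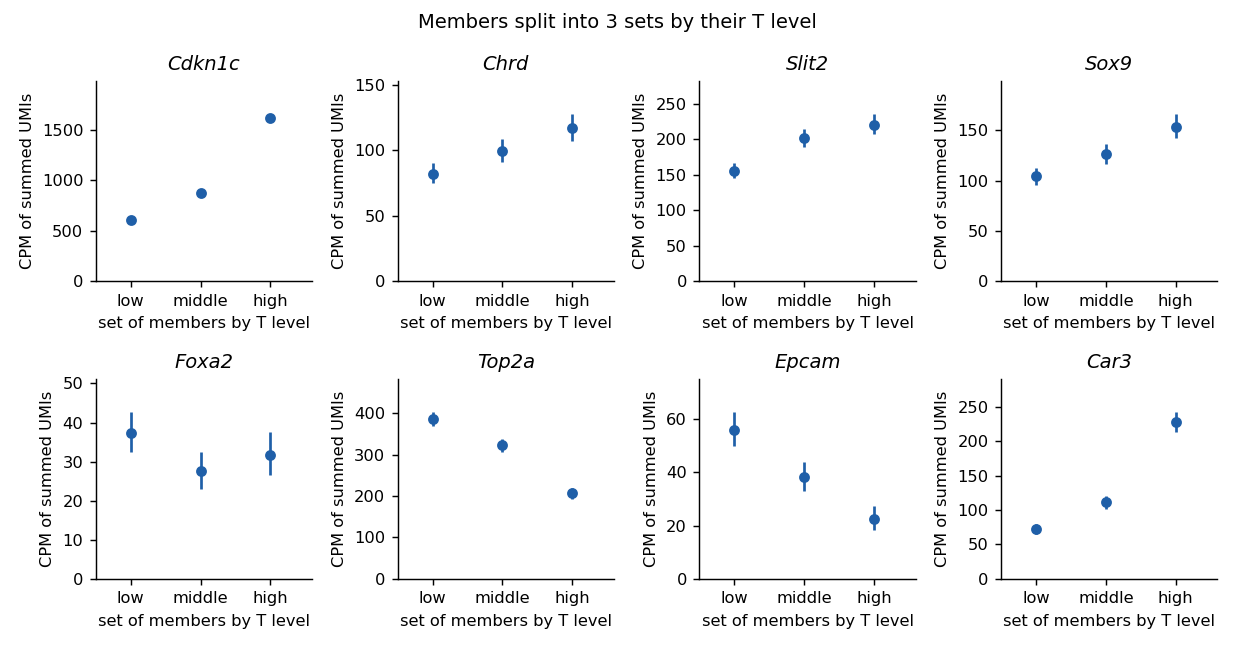
CPM of summed UMIs of 8 genes in the low, middle and high sets of the 769 T/Shh/Col2a1 cells by T level, with exact Poisson 95% intervals. Cdkn1c goes from 607.5 to 1616 CPM and Car3 from 71.8 to 228, Top2a and Epcam fall, and Foxa2 has no order.

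A further split followed Foxa2. After thinning to 8000 UMIs, 134 of the 769 cells held a Foxa2 UMI, with a median depth of 18745 UMIs against 17936 in the 635 without. Car3 was at 47.8 CPM in cells with Foxa2 against 149 in those without, Cdkn1a at 673 against 1100.3, and Tgm2 at 62.4 against 100.02. Krt19 was at 713 against 525 CPM and Epcam at 57.9 against 36.4. The BMP antagonist gene Nog was at 77.5 against 60.4 CPM (ratio 1.28, 1.1 to 1.5), Foxa1 at 35.7 against 46.4 (0.77, 0.61 to 0.96) and Alcam at 149 against 188 (0.79, 0.71 to 0.88). Col2a1, a gene of the rule, was at 128 against 163 CPM (0.78, 0.69 to 0.88). The intervals of the ratios of Chrd (100.4 against 97.7 CPM), Slit2 (179 against 192) and T (636 against 652) included 1.

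The same rule in the other libraries found few cells: 15 of 2386 in Epi-CE (0.629%, 0.352 to 1.03), 27 of 1111 in Epi-NMP (2.43%, 1.61 to 3.52) and 0 of 3116 in ES-NMP, where the limit of 3 counts allows a share of up to 0.0963% and the exact binomial interval reaches 0.118%. Their median depths were 19392 UMIs in Epi-CE and 13858 in Epi-NMP. Thinned to 8000 UMIs, 9 and 16 cells passed. Cells that met the rule were thus rare in the unsorted libraries, although T itself was no lower in Epi-CE. A T UMI was held by 88.6% of Epi-CE cells and 82.6% of Epi-CE-T cells. The libraries also differed in other genes, with Nkx1-2 at 182 CPM in Epi-CE against 12.6 in Epi-CE-T and Cdx2 at 122 against 4.67. The sort cannot be told apart from a difference between cell lines, since only the sorted library is labelled as the reporter line. Its part in the shares was not tested.

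In Epi-CE, 14 of the 15 highest genes were again at least 2-fold higher in the cells meeting the rule than in that library's other cells, where 8.77% of 9830 genes were. In Epi-NMP 13 of 15 were, where 3.64% of 7421 genes were. Lmx1a was 52.4-fold higher (34.9 to 76.9) in Epi-CE and 12.3-fold (6.78 to 21.2) in Epi-NMP, and Samd3 37.0-fold (28.2 to 47.8) and 15.3-fold (11.9 to 19.6). Slit2 was 10.3-fold and 7.10-fold higher, Tgm2 12.0-fold and 7.58-fold, and Alcam 24.3-fold and 4.96-fold. Levels in the cells meeting the rule were of like size in Epi-CE and Epi-CE-T, with Samd3 at 222 and 299 CPM, Slit2 at 222 and 190, Alcam at 163 and 181 and Lmx1a at 109.7 and 135. The larger ratios in Epi-CE went with lower levels in its other cells, such as 2.09 CPM for Lmx1a against 33.5 in Epi-CE-T.

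The exceptions were Spp1 and Psmb8. Spp1 had no UMI in the 15 Epi-CE cells, at least 1.46-fold lower than in that library's other cells by the limit of 3 counts over the 15 cells, and 1 UMI in the 27 Epi-NMP cells (ratio 0.34, 0.01 to 1.89). The limit of 3 counts does not allow for uneven levels of Spp1 between cells. Psmb8, a subunit of the immunoproteasome, had 2 UMIs in the Epi-NMP cells (ratio 0.44, 0.05 to 1.61) and was 3.58-fold higher in Epi-CE. Bmp5 in Epi-NMP rested on 3 UMIs, with an interval that reached below 1.

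Chrd was 5.42-fold higher (3.34 to 8.35) in Epi-CE and 3.73-fold (2.42 to 5.53) in Epi-NMP, Sox9 18.9-fold and 6.66-fold, and Nog 9.82-fold and 4.83-fold. Foxa2 was at 43.9 against 35.4 CPM in Epi-CE (ratio 1.24, 0.68 to 2.08) but at 64.5 against 14.3 CPM in Epi-NMP (4.52-fold, 2.98 to 6.63). Ptch1 was 3.01-fold higher (1.98 to 4.39) in Epi-CE and 1.86-fold (1.34 to 2.52) in Epi-NMP. Of the 10 lowest genes, 10 in Epi-CE and 9 in Epi-NMP were at least 2-fold lower, counting genes with no UMI in the cells meeting the rule, where 15.5% and 7.92% of all genes were. The interval lay wholly below 1 for 8 and 7 of them. Igfbp3, 10.5-fold lower in Epi-CE-T and 26.9-fold lower in Epi-CE, stood at a ratio of 1.13 (0.62 to 1.91) in Epi-NMP.

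**Figure D5:**
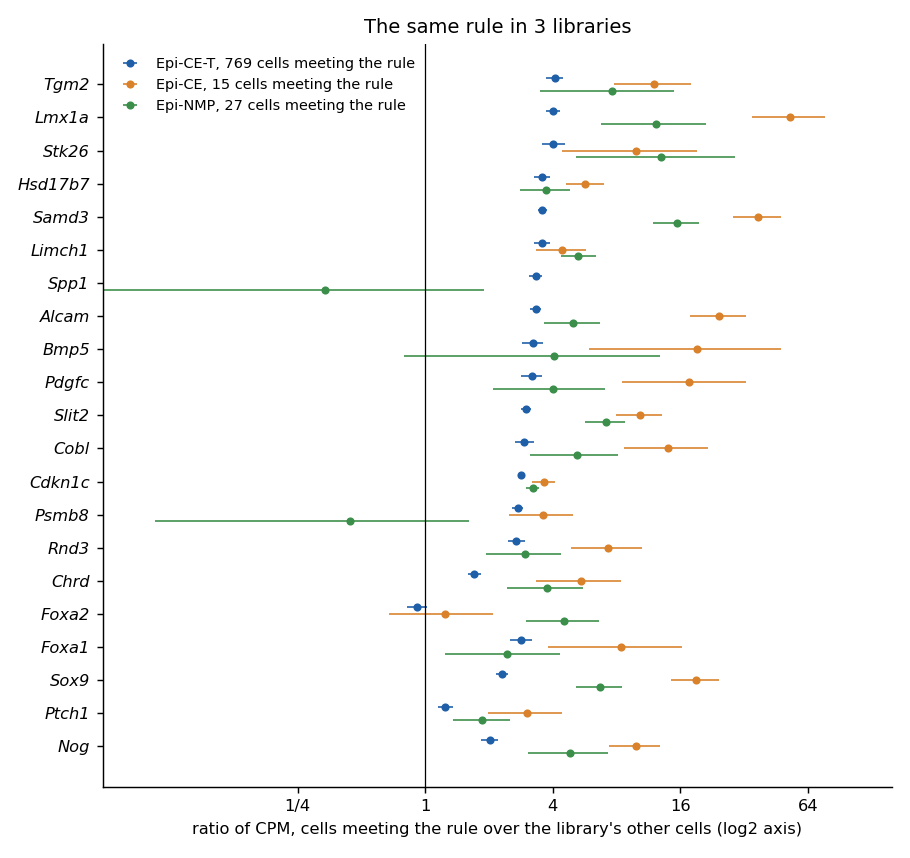
Ratio of CPM in cells that meet the rule to the other accepted cells of the same library, on a log2 axis, for the 15 highest genes and 6 others in Epi-CE-T (769 cells), Epi-CE (15 cells) and Epi-NMP (27 cells), with 95% counting intervals. Spp1 in Epi-CE, with no UMI, has no point, and its interval in Epi-NMP runs off the axis to 0.01; Lmx1a is above 1 in all 3 libraries at 4.02, 52.4 and 12.3, and Foxa2 only in Epi-NMP has an interval wholly above 1.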

How the data were processed

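The files hold UMI counts per gene and cell, deposited by the authors as raw counts for 27998 genes, and a deposited table of other values (sample name and a TRUE or FALSE mark) per barcode, of which the mark has no stated meaning in the sources used here. The submitters' processing notes name Cell Ranger 1.3.1, Seurat 2.0 and the mm10 build. Cells were assigned to libraries by that table, and FALSE barcodes were left out.

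UMIs were summed over the cells of each set and divided by the set's total (CPM, per 1000000 UMIs). Ratios carry exact conditional binomial 95% intervals, levels exact Poisson intervals and shares exact binomial (Clopper-Pearson) ones. All of them reflect counting error alone, since PCR duplicates are removed by UMI but cells share 1 library. Genes needed at least 200 UMIs over both sets to be ranked or counted, and 50 within the 28 gene lists (394 genes); a call is a ratio of at least 2 or at most its inverse, with no p-value. The 4 rule genes were left out of counts and medians. Cells were thinned without replacement to 8000 UMIs for shares, and no cell was shallower. Named genes are the 15 highest and 10 lowest ratios among genes with at least 50 CPM in the higher set, without ribosomal protein, mitochondrial and unnamed genes, a fixed set of 12 notochord and hedgehog genes, and up to 3 highest and 2 lowest of each list. The members and the lists were chosen with earlier results of these data known.

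The ratio was recomputed 12 ways: TMM factors (edgeR 4.0.16), totals without ribosomal and mitochondrial genes, mean CPM per cell, thinned cells, other thresholds of the rule, cells of middle depth, without high Scrublet scores (scanpy 1.11.5), and other sets of comparison cells. The share, gene counts and lists were recomputed with them. The scripts used Python 3.11.15, numpy 2.4.6, scipy 1.17.1 and pandas 2.3.3. Of their steps, only the ratio and its interval were tested on simulated counts, which were drawn without variation between cells. Promoters came from RefSeq and gene positions from GENCODE M21. Single counts per gene depend on depth, which was 8011 UMIs or more in every accepted Epi-CE-T cell.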

Additional observations from a re-analysis of the deposited data

Results flagged for a closer look

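In Epi-CE-T the barcodes marked FALSE in the authors' table were left out of every comparison, and 18 of these 92 (19.6%, 12.0 to 29.1) met the rule for T/Shh/Col2a1 cells. Their median depth was 8382 UMIs, against 7543 over all 92 FALSE barcodes and 18158 in the accepted T/Shh/Col2a1 cells. None of the FALSE barcodes of ES-NMP or Epi-CE and 3 of those of Epi-NMP (0.198%) met it.

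Spp1 went in opposite directions in the cells that meet the rule in 2 libraries. It was 3.33-fold higher than in the other cells in Epi-CE-T and, with 0 UMIs in the 15 cells that meet the rule in Epi-CE, at least 1.46-fold lower there, by the limit of 3 counts over those cells. As described above, Spp1 was uneven between the Epi-CE-T cells, and the limit of 3 counts does not allow for such unevenness. The 15 cells therefore do not fix its direction in Epi-CE, and the difference between the libraries was not tested.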

How the results depend on the processing

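Of 143 named genes with a ratio under all 12 alternatives, 66 were at least 2-fold higher or lower, 25 of these kept that call throughout and 41 lost it under at least 1 alternative, most often when the comparison cells were narrowed. The share of T/Shh/Col2a1 cells, 36.5%, became 34.3% with at least 5 T UMIs, 20.5% with at least 2 UMIs of Shh and of Col2a1, and 17.1% after thinning to 8000 UMIs. The 161 genes at least 2-fold higher and 151 lower became 67 and 61 in thinned cells (6921 genes tested), 36 and 46 against other cells with at least 3 T UMIs, 33 and 32 without comparison cells holding a Crabp1 or Pou5f1 UMI, 292 and 424 with at least 50 UMIs per gene, 47 and 34 with at least 1000, and 1743 and 2847 with at least 1. Against cells with at least 3 T UMIs and neither Shh nor Col2a1, added after the data were seen, 112 of 7547 genes were higher and 68 lower. The log2 ratio turned to 0.064 for Ccdc39 in thinned cells. For Crabp1 it turned to 0.71 against cells with at least 3 T UMIs and 0.12 against those with neither Shh nor Col2a1. Without comparison cells holding Crabp1 or Pou5f1, a filter not applied to the T/Shh/Col2a1 cells, it turned to 1.52 for Gdf3 and 0.23 for Lefty1. The number of genes tested differed too, from 5039 with at least 1000 UMIs to 17871 with at least 1, where the main comparison had 9440. The cause of the changes in these counts was not tested. Depth limits the rule itself, since 1 UMI of Shh or Col2a1 decides membership in many cells, and limits Noto, Hes5, Dll1, Gdf3 and Fgf15, which had 4 UMIs or fewer in the T/Shh/Col2a1 cells. No paired analysis was possible because each group is 1 library.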
